A study of Homo sapiens with 5 samples.

Results

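Activator protein 1 (AP-1) was followed here through 9 of its genes, FOS, FOSB, FOSL1, FOSL2, JUN, JUNB, JUND, ATF3 and MAFF, in SW480 cells recovered from zebrafish xenografts. The genes were chosen by symbol, all 9 were found in every plate, and they stand among 15020 human genes that were listed in all plates and seen in at least 10 wells. SW480 is a long-established line from a human colorectal carcinoma. SW480 cells carrying GFP from a lentiviral vector were injected into zebrafish embryos 2 days after fertilization, and the tumors were dissected at 1 day post injection (1 dpi) or 4 dpi. At both time points tumors were collected in a pool, digested with liberase in the presence of the anoikis inhibitor Y-27632 and DNase, and live (DAPI-negative) cells were sorted as single cells into 384-well plates for SORT-seq, in which each RNA molecule carries a well barcode and a unique molecular identifier (UMI). The study took 1 dpi as a time at which every subclone of the tumor was thought to be still there. It took 4 dpi as one at which only subclones that had escaped removal by the host were left. Libraries 6, 7 and 8 (1 plate each) were of 1 dpi and libraries 10 and 11 of 4 dpi, with no other treatment and no cells from before injection.

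AP-1 is a pair of bZIP proteins, usually 1 of the FOS and 1 of the JUN family, that binds DNA as a dimer. FOS, FOSB, JUN and JUNB are immediate early genes: their mRNA is made within minutes of growth factor, stress or adhesion signals that reach ERK, JNK or p38 kinases, and it is degraded quickly. FOSL1 and FOSL2 are later and longer lasting FOS family members without the strong transactivation domain of FOS, JUND is expressed more steadily, ATF3 is a stress-induced bZIP factor that can pair with JUN proteins, and MAFF is a small MAF protein that lacks a transactivation domain. In colorectal epithelium the family is known for linking MAPK signals to proliferation, migration and invasion.

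Wells were kept above 2000 detected genes and below 25% of UMIs on mitochondrial genes. By this filter 228, 142 and 163 cells of libraries 6, 7 and 8 and 132 and 161 cells of libraries 10 and 11 remained (826 in all), with 3789013 to 7502035 UMIs per library and a median of 18817 to 36189.5 UMIs per cell. Well barcodes are the same 384 on every plate, and 260 well numbers passed on at least 2 plates, so cells were identified by plate and well together. The labels state no sequencing batch, but the names of the deposited count tables carry one flow cell code for libraries 6, 7 and 10 (called the first flow cell here) and another for libraries 8 and 11 (the second). Epithelial markers were seen in all libraries (9 of 10 listed, 4862 to 5977 CPM in sum, with EPCAM, KRT8 and KRT18 abundant, and KRT20 not listed; CPM are UMI counts scaled to the size of the library). Of 9 leukocyte markers 5 were listed, with 17.6 to 23.3 CPM in sum at 1 dpi and 6.86 to 7.32 CPM at 4 dpi, and the defining markers PTPRC, CD3E, MPO and TYROBP were not among the genes listed in all plates. The part of these low levels in the differences described here was not tested. Of 7 stromal and blood markers 4 were listed, with 7.86 to 13.8 CPM at 1 dpi and 22 and 11.6 at 4 dpi. Each plate was taken as 1 sample. No source used here says whether plates of 1 time point stem from different pools of tumors, so the p-values may cover technical spread only. With 3 libraries against 2 an exact permutation test cannot go below 0.1.

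The promoters of 4 members whose RNA moved together from cell to cell (FOS, FOSB, JUNB and JUN, described further down) and that of JUND, which moved with them less, are given from 150 to 11 bases before the RefSeq transcription start (GRCh38.p14, the same assembly as the hg38 of the labels), each written in the direction of its gene. FOS lies on the plus strand (chr14:75278678-75278817), FOSB on the plus strand (chr19:45467846-45467985), JUNB on the plus strand (chr19:12791336-12791475), JUN on the minus strand (chr1:58784058-58784197) and JUND on the minus strand (chr19:18281633-18281772). None of these windows overlapped an annotated exon of GENCODE. ATF3 moved with JUN, FOSB and FOS about as closely (median correlation over the 5 libraries 0.58, 0.58 and 0.56), but its promoter is not shown. Capitals mark the core of the cAMP response element, TGACG on either strand, or the 8 bases TGACNTCA on either strand, to which JUN and ATF proteins can bind.
FOS: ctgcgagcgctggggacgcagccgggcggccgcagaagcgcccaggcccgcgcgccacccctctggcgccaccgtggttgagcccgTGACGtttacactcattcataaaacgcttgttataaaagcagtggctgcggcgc
FOSB: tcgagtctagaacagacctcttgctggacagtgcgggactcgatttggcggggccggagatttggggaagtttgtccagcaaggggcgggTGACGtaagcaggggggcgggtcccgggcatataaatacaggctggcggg
JUNB: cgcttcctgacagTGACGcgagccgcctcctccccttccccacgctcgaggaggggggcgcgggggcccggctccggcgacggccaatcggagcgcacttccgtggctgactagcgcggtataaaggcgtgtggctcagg
JUN: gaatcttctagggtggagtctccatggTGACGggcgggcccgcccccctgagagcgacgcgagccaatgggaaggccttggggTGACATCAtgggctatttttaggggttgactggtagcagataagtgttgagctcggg
JUND: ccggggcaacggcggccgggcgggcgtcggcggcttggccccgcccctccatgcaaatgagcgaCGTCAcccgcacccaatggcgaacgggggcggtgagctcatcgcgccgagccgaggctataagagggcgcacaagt

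In the 250 bases before the start, TGACG was present in 7 of the 10 windows of the 8 members with a RefSeq promoter entry (ATF3 and MAFF had 2 windows each, and FOSL1 none), against 21.2% of 35116 promoter windows of the same length. It began 64 bases before the start in FOS, 60 in FOSB, 137 in JUNB and 123 in JUN, and the JUND window held it 86 bases before the start and again in an upstream TGACGTCA at 200. The longer TGACNTCA, which can overlap TGACG, was found in 4 of the 10 windows (1 each of JUN, JUND, ATF3 and MAFF) and in 6.87% of all windows. ATF3 held TGACG in neither of its 2 windows. TGANTCA on either strand, the AP-1 site with its middle base left free, was found in 0 of the 10 windows against 6.57% of all. A CArG box, the core of the serum response element, was found in 0 of 10 against 1.16%. These are letter matches within a short window and say nothing about binding. They also say nothing about sites further from the start or sites that differ from these patterns by a letter.

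To ask how the family differed between 1 and 4 dpi, the UMIs of all passing cells were summed per library, and levels are given as CPM on edgeR's scaled library sizes. In such sums, fewer cells with a transcript and less of it per cell cannot be told apart. Of 9 members, 3 were lower at 4 dpi (FOS, FOSL1 and JUNB), 3 were higher (FOSL2, JUND and ATF3) and 3 did not pass the test (FOSB, JUN and MAFF) at an adjusted p under 0.05 in edgeR's quasi-likelihood test, against 27.6% of 12638 genes called in either direction, 14.2% called lower and 13.4% called higher. The median log2 change of all genes was 0.00, and that of the members was -0.00. For the 6 called members the 4 dpi libraries lay wholly to one side of the 1 dpi libraries, which was also true of 54.6% of all genes.

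**Figure D1:**
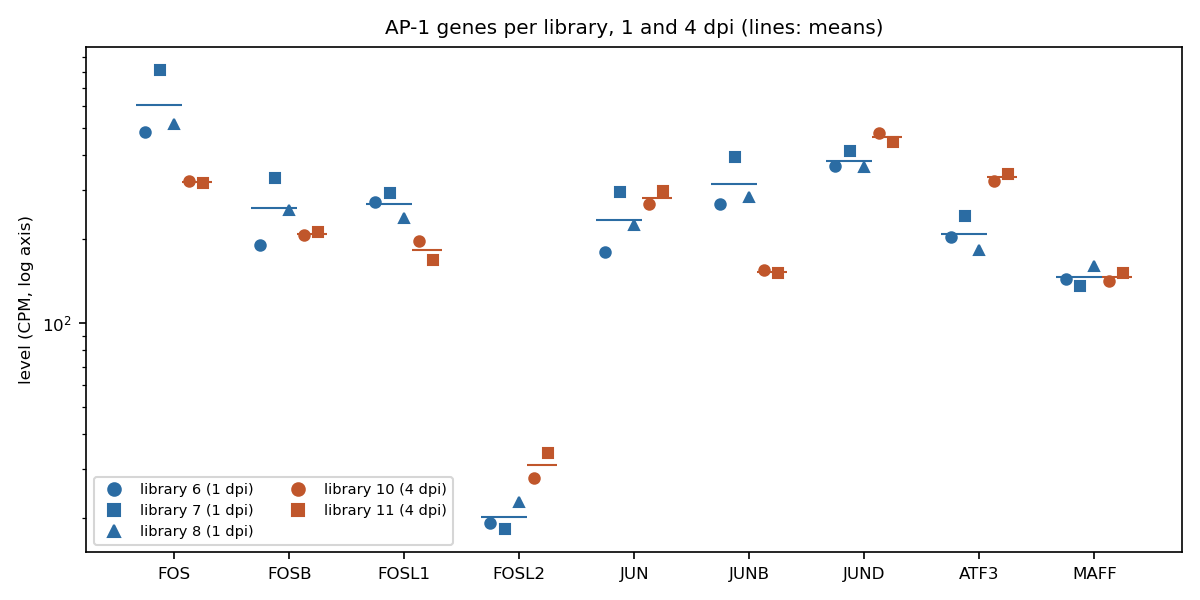
Level of each AP-1 gene (CPM, log axis) in the 5 libraries, blue for 1 dpi and orange for 4 dpi, with horizontal lines at the mean of each time point. FOS, FOSL1 and JUNB sat lower in both 4 dpi libraries, FOSL2, JUND and ATF3 sat higher, and FOSB, JUN and MAFF overlapped.

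Among the FOS family, FOS itself stood at 485, 810.2 and 519 CPM in libraries 6, 7 and 8 and at 323 and 319 CPM in libraries 10 and 11. Both 4 dpi libraries were below every 1 dpi library, and library 7 was the highest. These sums rest partly on single cells. The cell with the most FOS held 320 of 3625, 698 of 4267 and 329 of 2469 UMIs in libraries 6, 7 and 8. In libraries 10 and 11 it held 222 of 1283 and 293 of 1227. The part of such cells in the differences was not tested. FOS fell by 0.91 on the log2 scale (standard error 0.16, adjusted p = 0.000752 in edgeR). Without library 7 the fall was 0.64 (adjusted p = 0.00048). FOSB, the closest relative of FOS, was at 191, 333 and 255 CPM at 1 dpi and at 207 and 212 CPM at 4 dpi. Its libraries overlapped, and its log2 change of -0.31 (standard error 0.16) had an adjusted p of 0.167 in edgeR. This became 0.00895 without library 6, with a log2 change of -0.49, but 0.698 without library 7, with a log2 change of -0.08. In library 7 a single cell held 427 of 1754 FOSB UMIs.

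FOSL1, which codes for FRA-1 and is often tied to invasion and mesenchymal traits in colorectal cancer, was at 273, 292 and 239 CPM at 1 dpi and at 197 and 169 CPM at 4 dpi. The time points did not overlap. FOSL1 fell by 0.55 on the log2 scale (standard error 0.11, adjusted p = 0.00163). It was -0.29 with a mitochondrial maximum of 15% (adjusted p = 0.0741). FOSL2, which codes for FRA-2, moved the other way, from 19.3, 18.2 and 22.9 CPM to 27.9 and 34.3 CPM, which is 0.63 higher on the log2 scale (standard error 0.17, adjusted p = 0.0105). It rested on 96 to 144 UMIs per library, and without library 11 its adjusted p was 0.13 (log2 change 0.48).

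The JUN family divided as well. JUNB, which pairs with FOS proteins and can restrain JUN, was at 267, 394 and 284 CPM at 1 dpi and at 155 and 151 CPM at 4 dpi. This was the largest fall of the family, 1.04 on the log2 scale (standard error 0.14, adjusted p = 7.71e-05). JUN was at 180.3, 296 and 226 CPM at 1 dpi and at 267 and 297 CPM at 4 dpi. Library 7 was as high as the 4 dpi libraries, and a single cell held 281 of its 1557 JUN UMIs. The log2 change of 0.27 (standard error 0.15) had an adjusted p of 0.178 in edgeR, against 0.0101 without library 7 (log2 change 0.48). Without library 6 the log2 change of JUN was 0.11 (adjusted p = 0.545), and without library 11 it was 0.19. JUND was at 368, 414 and 365 CPM at 1 dpi and at 481 and 447 CPM at 4 dpi. Its rise was small, 0.28 on the log2 scale (standard error 0.09, adjusted p = 0.0323), and it did not pass without library 6 (adjusted p = 0.0797), library 8 (0.101) or library 10 (0.188).

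Of the other bZIP members, ATF3 was at 204, 242 and 183 CPM at 1 dpi and at 325 and 343 CPM at 4 dpi. Both 4 dpi libraries were above all 1 dpi libraries, and ATF3 rose by 0.67 on the log2 scale (standard error 0.11, adjusted p = 0.000368). MAFF was at 145, 136 and 161 CPM at 1 dpi and at 141 and 152 CPM at 4 dpi, and its difference was -0.00 on the log2 scale (standard error 0.10, adjusted p = 0.985). Within the first flow cell the log2 difference between 4 and 1 dpi was -1.0 for FOS, -1.09 for JUNB, -0.52 for FOSL1, 0.58 for FOSL2, 0.30 for JUND and 0.54 for ATF3. Within the second, with 1 library per time point and no test, it was -0.70 for FOS, -0.91 for JUNB, -0.50 for FOSL1, 0.59 for FOSL2, 0.29 for JUND and 0.91 for ATF3. With the flow cell as a term in the edgeR fit, 6 of 9 members were called, with FOS at -0.87 (adjusted p = 0.000514) and JUND at 0.30 (adjusted p = 0.0199).

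The time difference was also computed in separate fits within classes of cells. A test between the upper and the lower tertile by cycle genes is given further down, where FOSB alone of the members passed. The other classes were not tested against each other. In the upper tertile of cells by the share of UMIs on S and G2/M phase genes, 7 of 9 members were called (15.5% of genes), with FOS at -1.37 (adjusted p = 1.85e-07) and FOSB at -0.74 (adjusted p = 0.0109). In the lower tertile, 1 of 9 was called (8.34% of genes), which was ATF3 at 0.72 (adjusted p = 0.0429), while FOS had a log2 change of -0.47 (adjusted p = 0.184), JUNB one of -0.49 (adjusted p = 0.12) and FOSB one of 0.42 (adjusted p = 0.19). In cells without a HES5 UMI after thinning, 7 of 9 were called (19.2% of genes), JUN now among them at 0.48 (adjusted p = 0.0269), and FOS and JUNB changed by -0.67 and -0.62. In cells under a mitochondrial maximum of 15%, 5 of 9 were called (20.9% of genes).

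Around the members, of 29 other immediate early genes tested, 13 were lower at 4 dpi, 4 higher and 12 not called, with a median log2 change of -0.20. In DESeq2 12 were lower and 1 higher. Of all genes 14.2% were called lower and 13.4% higher in edgeR, the shares beside which the counts of this and the following lists stand. The largest falls were in EGR2 (-2.32), EGR4 (-1.54) and the nuclear receptor NR4A1 (-1.43), and the largest rises in CYR61 (1.20), BTG1 (0.85) and PPP1R15A (0.68), a phosphatase subunit of the integrated stress response. CYR61 was low and its libraries overlapped, at 4.55, 12.2 and 4.83 CPM at 1 dpi and 8.56 and 23.9 CPM at 4 dpi. Of 20 MAPK phosphatases and feedback inhibitors, many of which are induced by MAPK signaling and dampen it, 0 were higher and 6 lower (median -0.23). The falls were led by DUSP5 (-1.26), SPRY4 (-0.91) and DUSP7 (-0.72). At an unadjusted p under 0.05 in edgeR 1 was higher, and in DESeq2 0 were higher and 5 lower. Among 26 upstream kinases and SRF factors, 9 were lower, with the SRF partner ELK3 at -2.12, and 2 higher, among them MAPK3 (ERK1) at 0.92 (median -0.21). ELK3 was low, at 10.1 to 11.9 CPM at 1 dpi and 1.76 and 3.38 CPM at 4 dpi. Of 21 bZIP partners, 3 were higher (MAF at 2.02, ATF5 and CEBPB) and 4 lower (CREB1 at -0.60, with CEBPG and ATF1 next), and the median was 0.08. MAF was low as well, at 1.90 to 4.28 CPM at 1 dpi and 13.8 and 13.3 CPM at 4 dpi.

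Among 24 tested AP-1 target genes of a list written from general knowledge, 9 were lower and 2 higher at 4 dpi (median -0.19). This stands against 14.2% of all genes called lower and 13.4% called higher. PLAUR, the urokinase receptor, was at 114, 261 and 179 CPM at 1 dpi and at 35 and 39.8 CPM at 4 dpi, which is -2.30 on the log2 scale (standard error 0.26, adjusted p = 1.53e-05 in edgeR). PLAU, its ligand, changed by -1.96 at low levels, from 6.69, 10.1 and 17.2 CPM to 4.03 and 1.56 CPM. CD44 (0.65) and GSTP1 (0.33) were the 2 that rose. Heat shock genes, counted beside them because they respond to handling of cells, were 3 higher and 5 lower of 13, with a summed level of 7427 to 7625 CPM at 1 dpi and 6378 and 6709 CPM at 4 dpi, and their part in the members' change was not tested. Of 8 epithelial markers tested, 4 were lower and 1 higher, and of 3 leukocyte markers 2 were lower, ITGAM (-2.53) and FCER1G (-1.64).

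To describe the members from cell to cell, each cell was thinned to 10000 UMIs, which left 701 cells (460 at 1 dpi and 241 at 4 dpi). FOS was the most uneven member. It was seen in 55.4%, 58.7% and 53.2% of cells in libraries 6, 7 and 8 and in 39.8% and 47.2% in libraries 10 and 11, with a highest count of 91 to 104 UMIs in a cell at 1 dpi and of 52 and 50 at 4 dpi. The tenth of cells with the most FOS held 71% to 79.9% of all FOS UMIs of a library. For comparison, in the 522 wells with under 200 genes, whose content was not tested, FOS was seen in 5.36% of wells and JUND in 5.17%. JUND was seen in 2.50%, 1.48% and 3.62% of them at 1 dpi and in 10.3% and 11.3% at 4 dpi. FOS was seen in 3.75%, 5.19% and 7.97% and in 4.67% and 3.23%. These wells held a median of 131, 57 and 74 UMIs at 1 dpi and of 167 and 207.5 UMIs at 4 dpi.

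The Fano factor, the variance over the mean of the thinned counts, put FOS among the most uneven genes of these cells. It was 34.1, 39.4 and 38.7 at 1 dpi and 24.3 and 16.9 at 4 dpi, where the median of 5326 genes seen in at least 20% of cells of every library was 1.25 to 1.32. FOS ranked between 1 and 22 of these genes in the 5 libraries, FOSB between 12 and 42, JUNB between 16 and 126, and ATF3 between 26 and 49. MAFF ranked lowest of the members in this set, between 173 and 869. FOSL2 was too rare for the ranking (13.5% to 23.7% of cells).

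The Fano factor was lower in both 4 dpi libraries for FOS only, of 8 ranked members (8.45% of genes), and higher in both for JUND and ATF3 (21.4% of genes), so that both counts were near those of all genes. With a mitochondrial maximum of 15% the counts were again 1 (8.15% of genes) and 2 (22.3%). At 5000 UMIs per cell FOS was again lower (7.77% of genes), but 5 of 8 were higher, FOSL1, JUN and MAFF beside JUND and ATF3 (18.3% of genes). For JUND it went from 3.78, 3.45 and 3.60 to 5.21 and 11.3, although JUND was seen in 86% to 92.4% of cells throughout. The highest JUND count in a cell was 54 UMIs in library 11 and 18 to 27 in the other libraries. At 5000 UMIs the Fano factor of JUND went from 2.50, 3.22 and 2.56 to 5.16 and 3.59. For ATF3 it went from 6.92, 6.91 and 6.58 to 15.2 and 14.1. In each of these 3 the exact two-sided permutation p was 0.1, the smallest that the design allows. The mean of thinned UMIs went the same way. It was 5.82 at 1 dpi and 3.26 at 4 dpi for FOS, 3.71 and 4.61 for JUND, and 1.84 and 3.56 for ATF3. The 10% of cells with the most FOS held 71.9%, 71.7% and 79.9% of its UMIs at 1 dpi. At 4 dpi they held 79.7% and 71%, so the time points overlapped. This share was higher in both 4 dpi libraries for JUND and ATF3, but under a mitochondrial maximum of 15% not for ATF3. The part of the mean in the Fano factors was not tested.

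The share of cells with ATF3 overlapped between time points, at 50.8%, 50.8% and 45.4% at 1 dpi and 51.7% and 49.6% at 4 dpi (difference 1.66 percentage points, exact permutation p = 0.8). This depended on the cells and depth used: with a mitochondrial maximum of 15% the share was 53.5%, 54.5% and 49.1% at 1 dpi and higher at 4 dpi, 60.8% and 58.4%, whereas at 5000 UMIs it was 43.8%, 43.6% and 42.5% and then lower, 37.7% and 39.6% (exact permutation p = 0.1 in both). The cells that had it had more of it, on average 3.70, 4.14 and 3.41 UMIs at 1 dpi and 6.05 and 8.05 at 4 dpi (exact permutation p = 0.1). Cells with 10 or more ATF3 UMIs made up 2.59%, 7.14% and 2.13% at 1 dpi and 10.2% and 14.6% at 4 dpi. JUN was seen in 55.1% to 62.7% of cells, and had a mean of 2.95, 4.05 and 4.22 UMIs per positive cell at 1 dpi against 4.65 and 5.26 at 4 dpi (exact permutation p = 0.1), but with a mitochondrial maximum of 15% the libraries overlapped (3.11, 4.44 and 4.40 against 3.91 and 5.66, exact permutation p = 0.6).

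FOSL1 was seen in 77.7%, 79.4% and 70.2% of cells at 1 dpi and in 58.5% and 58.5% at 4 dpi, while its mean per positive cell was 3.54, 3.43 and 3.38 UMIs and then 3.52 and 2.96. Its difference in the share of cells was -17.3 percentage points, and -8.77 under a mitochondrial maximum of 15%, where the libraries overlapped (exact permutation p = 0.3). JUNB lost both, with 59.6%, 63.5% and 64.5% of cells at 1 dpi and 51.7% and 43.1% at 4 dpi, and 4.08, 5.83 and 4.56 UMIs per positive cell against 3.16 and 3.96. The share of positive cells was below all 1 dpi libraries in both 4 dpi libraries for FOS, FOSB, FOSL1, JUNB and MAFF, 5 of 8 members that could be set against 27.5% of 5326 genes, and above them in 0 of 8, against 16.8%. Under a mitochondrial maximum of 15% it was below in 2 of 8, FOS and JUNB (21.3% of genes), and above in 1, ATF3 (16.3%), and at 5000 UMIs below in 5, with ATF3 in place of MAFF (25.6%), and above in 0 (16.8%). FOSL2, outside that set, was seen in more cells at 4 dpi (21.9% and 23.7%) than at 1 dpi (13.5% to 16.7%). For MAFF the difference in the share of positive cells was -7.44 percentage points, but 1.22 with a mitochondrial maximum of 15%.

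**Figure D2:**
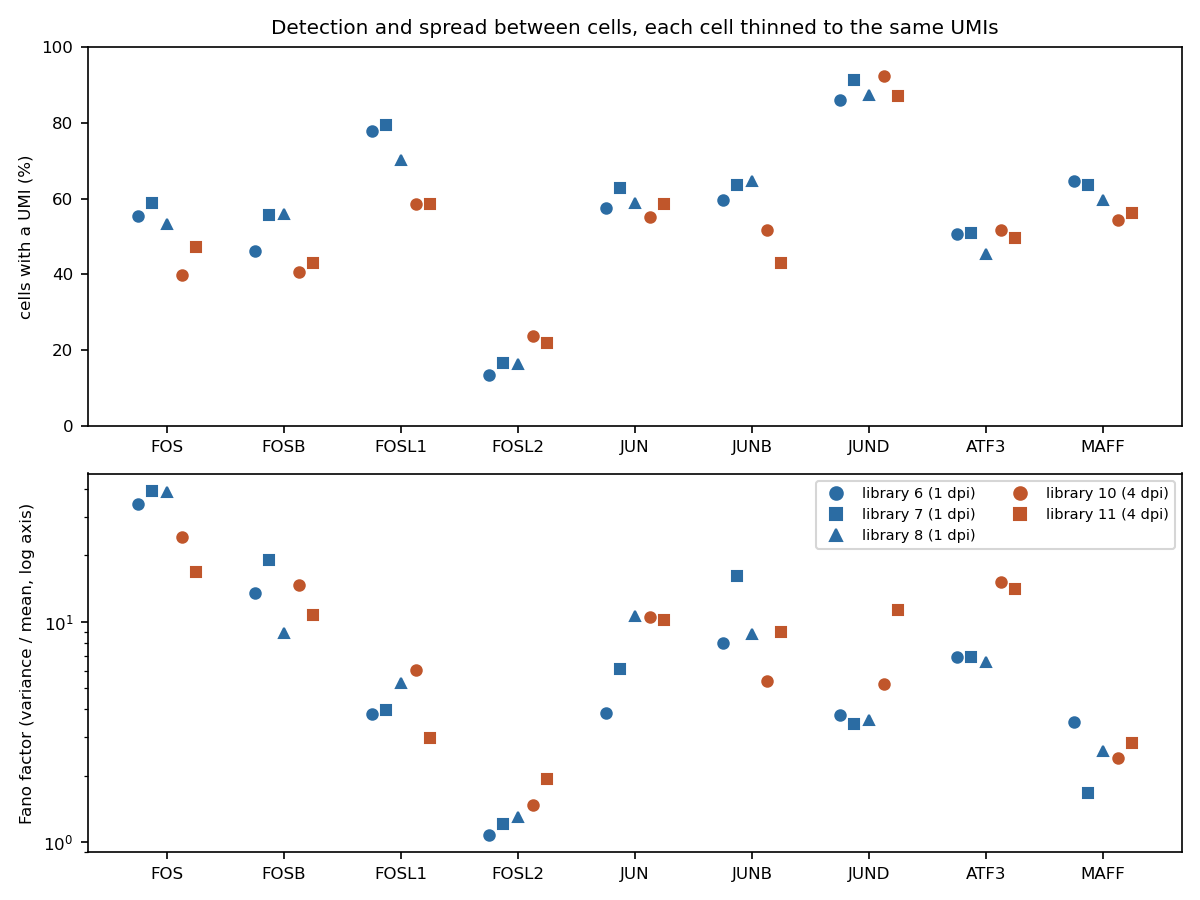
Share of cells with a UMI (upper panel, %) and Fano factor (lower panel, log axis) of each AP-1 gene in each library, after thinning every cell to 10000 UMIs. FOS had the largest Fano factor in every library, and ATF3 had a higher one in both 4 dpi libraries, while its share of cells overlapped at this depth and mitochondrial maximum.

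The members were then compared with each other within each library by the Pearson correlation of log2(thinned UMIs + 1) over cells, as a description with no p, since cells of a plate share a library. By the median over the 5 libraries FOS and FOSB went together most closely, with r between 0.70 and 0.81 (median 0.76), although FOS and JUNB had a higher r in library 7 (0.78 against 0.77) and FOSB and JUN in library 11 (0.76 against 0.70). They were followed by FOS and JUNB (0.59 to 0.78), FOS and JUN (0.55 to 0.73) and FOSB and JUNB (0.57 to 0.72). The median over all 14180475 pairs of the 5326 genes was 0.00663 to 0.00922 per library, and the 95th percentile was 0.16 to 0.20. The 8 pairs with FOSL2 had r between -0.06 and 0.33. FOSL2 had a mean of 0.15 to 0.33 thinned UMIs per cell, and the part of these low counts in its r was not tested. The promoters shown above are those of the immediate early members FOS, FOSB, JUNB and JUN. JUND, shown beside them, had r between 0.19 and 0.51 with FOS. ATF3, whose promoter is not shown, had r between 0.48 and 0.56 with FOS.

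Detection said the same in a coarser way. Both FOS and FOSB were seen in more cells than their single shares would give, with odds ratios of 6.51, 4.35, 6.15, 7.05 and 4.50 in libraries 6, 7, 8, 10 and 11. In 27 of 36 pairs the odds ratio was above 1 in all 5 libraries, and in 24 of the 28 pairs without FOSL2, against 8% of all pairs of the 5326 genes. A cell held a UMI of 5.11, 5.42 and 5.11 of the 9 genes on average at 1 dpi and of 4.68 and 4.65 at 4 dpi, and the variance of that number was 2.27 to 2.94 times what independent detection would give. Cells with 7 or more members were 27% to 36.5% of a library, and cells with all 9 were 2.54% to 5.56%.

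At 4 dpi more cells held 0 or 1 member: 8.47% and 10.6% against 5.70%, 3.17% and 4.96% (exact permutation p = 0.1). With a mitochondrial maximum of 15% this was no longer so (3.33% on average at 4 dpi and 3.70% at 1 dpi, exact permutation p = 0.9). The thinned counts of 7 members ran against the mitochondrial share of the cell in every library, JUND with a Spearman rho between -0.35 and -0.12, MAFF with one between -0.50 and -0.10 and FOSL1 with one between -0.46 and -0.03, while FOSL2 and JUNB had both signs. For MAFF and FOSL1 the rho was more negative in the 4 dpi libraries (-0.45 and -0.50 for MAFF, -0.29 and -0.46 for FOSL1) than in those of 1 dpi. The part of the mitochondrial share in these values was not tested.

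**Figure D3:**
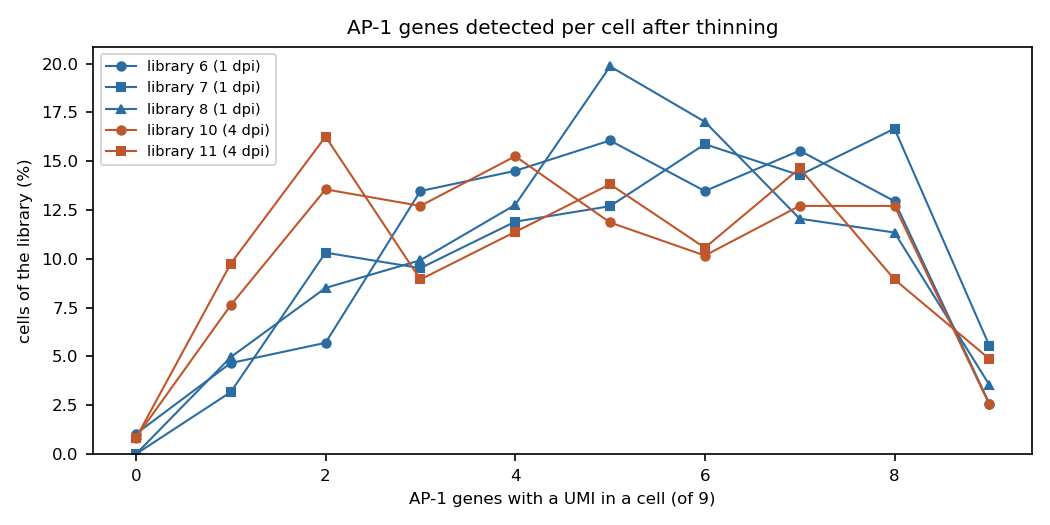
Number of the 9 AP-1 genes with a UMI in a cell (horizontal axis) against the percent of cells of each library (vertical axis), after thinning, blue for 1 dpi and orange for 4 dpi. Both 4 dpi libraries held more cells with 1 or 2 genes, up to 16.3% of cells at 2 genes, and all 5 libraries reached up to 9 genes.

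The correlations themselves differed between time points. Of 36 pairs, 19 had a higher r in both 4 dpi libraries than in any 1 dpi library and 3 had a lower one, against 13.2% and 12.9% of all pairs of genes (17 and 3 of the 28 pairs without FOSL2, the set behind those shares). The counts were 14 and 4 of 36 under a mitochondrial maximum of 15%, and 12 and 1 at 5000 UMIs. The mean r over the 36 pairs was 0.28, 0.35 and 0.29 at 1 dpi and 0.41 and 0.41 at 4 dpi (exact permutation p = 0.1). FOSL1 and JUND took up most of the rise: of the 15 pairs that hold at least 1 of them, a grouping chosen after the values were seen, 14 were higher in both 4 dpi libraries. FOSL1 and MAFF went from r of 0.24, 0.11 and 0.19 to 0.49 and 0.58, FOS and JUND from 0.19, 0.27 and 0.27 to 0.51 and 0.44, and FOSB and JUN from 0.51, 0.58 and 0.47 to 0.69 and 0.76. Among FOS, FOSB and JUNB the libraries overlapped, with a mean r of 0.68, 0.76 and 0.71 at 1 dpi and of 0.69 and 0.62 at 4 dpi (exact permutation p = 0.3). With a mitochondrial maximum of 15% the mean r of the 36 pairs was 0.30 at 1 dpi and 0.37 at 4 dpi (exact permutation p = 0.2), and that of FOS, FOSB and JUNB was 0.71 and 0.60 (exact permutation p = 0.1).

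**Figure D4:**
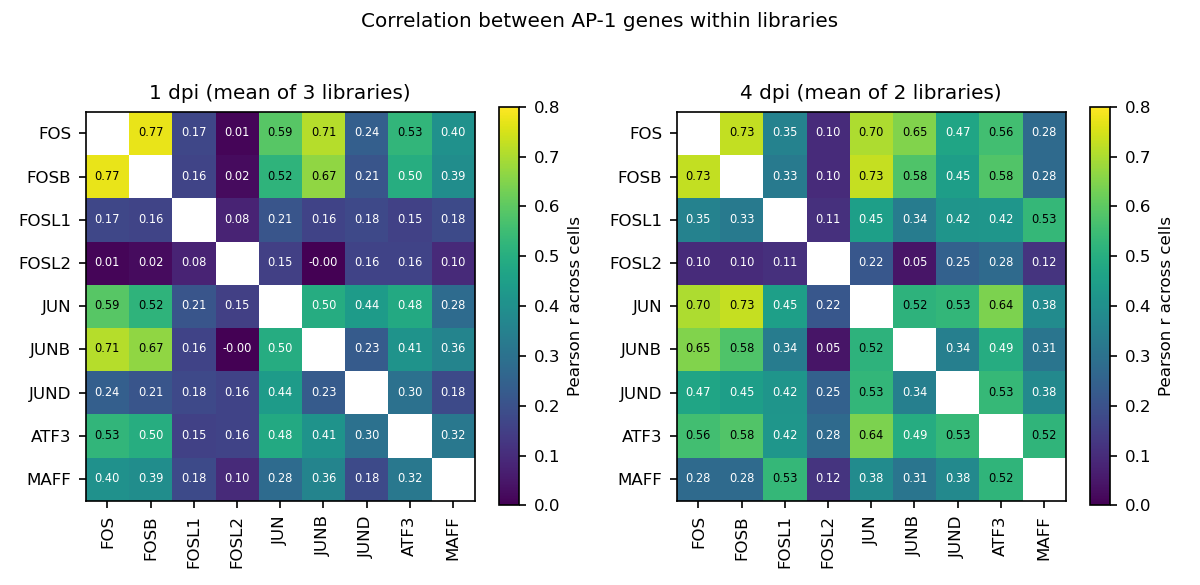
Pearson correlation across cells of log2(thinned UMIs + 1) for each pair of AP-1 genes, averaged over the 3 libraries of 1 dpi (left) and the 2 of 4 dpi (right), with the value in each square. The block of FOS, FOSB and JUNB was bright at both time points, while the rows of FOSL1 and JUND were brighter at 4 dpi.

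Among 5325 other genes, those most like FOS from cell to cell were its relatives FOSB, JUNB and JUN at ranks 1, 3 and 6 and, outside the family, the zinc finger factor EGR1 (median r over the 5 libraries 0.73), the mRNA decay factor ZFP36 (0.67), IER2 (0.67), the MAPK phosphatase DUSP1 (0.58) and the Notch effector HES1 (0.57). The likeness of FOS to HES1 was 0.57, 0.74 and 0.67 at 1 dpi and 0.29 and 0.33 at 4 dpi. That to DUSP1 ran from 0.50 in library 6 to 0.72 in library 10. ATF3 held rank 9 for FOS, MAFF rank 36, JUND rank 106 and FOSL1 rank 204. The genes most like JUN were EGR1 (0.64), IER2 (0.63), KLF6 (0.55), ZFP36 (0.55) and RHOB (0.53), with FOS at rank 1, FOSB at 4 and ATF3 at 5.

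To ask whether the family went with the cell cycle, the UMIs of the upper and the lower tertile of cells by the share of Seurat's S and G2/M phase genes (cycling and low-cycling cells) were summed in each library and compared with the library as a block. MAFF alone of the 9 was called, and it was lower in cycling cells (log2 difference -0.43, standard error 0.14, adjusted p = 0.0352), in 4 of 5 libraries. This is 1 of 9 members against 20.3% of 9931 genes. MAFF was at 118, 95.8, 143, 143 and 102 CPM in cycling cells of libraries 6, 7, 8, 10 and 11 and at 187, 158, 145, 122 and 198 CPM in low-cycling cells. FOS had a difference of 0.43 (standard error 0.18, adjusted p = 0.0994) with library values of 0.88, 0.16, 1.33, 0.29 and -0.65, which run over both signs. MAFF no longer passed without library 6 (adjusted p = 0.143), 7 (0.134) or 11 (0.147), in DESeq2 (0.0679), or without the library block (0.0887), and FOS passed without library 11 (0.66, adjusted p = 0.00317). Cycling cells had more UMIs (median 25362 to 42086.5 per cell against 15754 to 27946).

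Around the members, 11 of 22 AP-1 target genes were lower in cycling cells, against 9.93% of all genes, and 0 higher, against 10.4% (median -0.44; in DESeq2 9 and 0, and 0 higher at an unadjusted p under 0.05 in edgeR), among them EMP1 (-2.05) and LAMB3 (-1.08). Of 26 other immediate early genes, 5 were higher, EGR1 among them (0.99), and 6 lower, among them the Krüppel-like factors KLF2 (-1.11), KLF4 (-1.0) and KLF6 (-0.92). Of 12 heat shock genes 7 were higher and 0 lower in edgeR and in DESeq2, with 0 lower at an unadjusted p under 0.05. Among 18 bZIP partners, 8 were lower, with the C/EBP factor CEBPB at -0.85 and the stress factor DDIT3 at -0.77, and 1 was higher. Of 19 MAPK phosphatases and feedback inhibitors 2 were lower and 0 higher in edgeR and in DESeq2 (1 higher at an unadjusted p under 0.05 in edgeR). Of 23 upstream kinases and SRF factors 0 were called in edgeR or DESeq2, and 2 were lower at an unadjusted p under 0.05 in edgeR. Of 8 epithelial markers 3 were lower, the keratins KRT19 (-0.66), KRT8 (-0.33) and KRT18 (-0.27), and the part of these in the members' values was not tested.

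For FOSB the difference between cycling and low-cycling cells was not the same at the time points. It was 0.35, 0.05 and 1.43 on the log2 scale in libraries 6, 7 and 8, positive in all 3, and -0.96 and -0.27 in libraries 10 and 11. The interaction was -1.17 (standard error 0.27, adjusted p = 0.036), 1 of 9 members against 0.664% of 10847 genes. FOS had an interaction of -0.93 (adjusted p = 0.0764). FOSB no longer passed without library 6 (adjusted p = 0.158), 8 (0.0613) or 10 (0.274). Other quantities moved between these classes as well. The median mitochondrial share was 11.8%, 11.2% and 10.8% in cycling and 14.3%, 11.9% and 11.0% in low-cycling cells of libraries 6, 7 and 8, but 15.2% and 15.5% against 11.8% and 10.2% in libraries 10 and 11. HES5 had 157, 76 and 119 UMIs in cycling and 29, 54 and 25 in low-cycling cells of 1 dpi, and at most 6 in any class of 4 dpi. Their part in the FOSB difference was not tested.

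Notch signaling is one of the pathways by which the study describes its cell states, and HES5 is an effector of Notch. Cells of 1 dpi were therefore divided by whether HES5 had a UMI after thinning, and summed per library. HES5 was seen in 38 of 193 cells of library 6, 22 of 126 of library 7 and 26 of 141 of library 8, but in only 2 of 118 and 3 of 123 cells of libraries 10 and 11, so the comparison was made at 1 dpi alone. In the HES5-detected cells 7 of 9 members were higher and 0 lower in edgeR and in DESeq2 (0 lower at an unadjusted p under 0.05), against 18.8% of 11118 genes called higher and 36.4% called in either direction. FOSL1 and FOSL2 were the 2 that did not pass.

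JUNB was at 537, 801 and 459 CPM in HES5-detected cells of libraries 6, 7 and 8 and at 174, 301 and 224 CPM in HES5-zero cells. Each library had more in the HES5-detected cells, by 1.62, 1.41 and 1.04 on the log2 scale, and the fitted difference of 1.37 (standard error 0.09, adjusted p = 1.74e-13) was the largest of the family. FOS was at 923, 1172 and 794 CPM in HES5-detected cells and at 346, 737 and 426 CPM in HES5-zero cells. The ranges of the classes did not overlap, although FOS in the HES5-zero cells of library 7 came close to its level in the HES5-detected cells of library 8. Its fitted difference was 1.00 (standard error 0.09, adjusted p = 1.91e-10). FOSB differed by 1.02, JUN by 0.93, ATF3 by 0.80, MAFF by 0.68 and JUND by 0.54, each in the same direction in 3 of 3 libraries.

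FOSL1 was at 272, 249.5 and 316 CPM in HES5-detected cells and at 288, 313 and 217 CPM in HES5-zero cells, lower in 2 libraries and higher in 1, with a log2 difference of 0.05 (standard error 0.10, adjusted p = 0.769). FOSL2 had one of -0.14 (standard error 0.22, adjusted p = 0.668). The standard errors of these fits pool the spread over genes. The SD of the 3 library differences ran from 0.18 for MAFF to 0.48 for ATF3, with 0.38 for FOS, 0.30 for JUNB and 0.45 for FOSL1. It was wider than the standard error of the fit for all members but FOSL2 (0.19 against 0.22). A sign test over 3 libraries cannot go below an exact p of 0.25.

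HES5-detected cells had more UMIs (median 40660 to 43582 per cell against 27209 to 38640.5) and a lower mitochondrial share (median 9.21% to 9.62% against 11.1% to 13.2%). With each cell thinned to the same depth, 7 of 9 members were called (20.2% of genes), FOS at 1.32 and JUNB at 1.53. With a mitochondrial maximum of 15%, a limit added after the data had been seen, 7 of 9 were called (31% of genes), FOS at 0.87 and JUNB at 1.38. Among cells below the median share of phase UMIs, 3 of 9 were called (14.9% of genes): JUNB was higher by 1.46 (adjusted p = 0.000239), FOSB by 0.66 (adjusted p = 0.02), and FOSL1 was lower, at -0.67 (adjusted p = 0.0172). FOS had a difference of 0.47 there (adjusted p = 0.137).

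**Figure D5:**
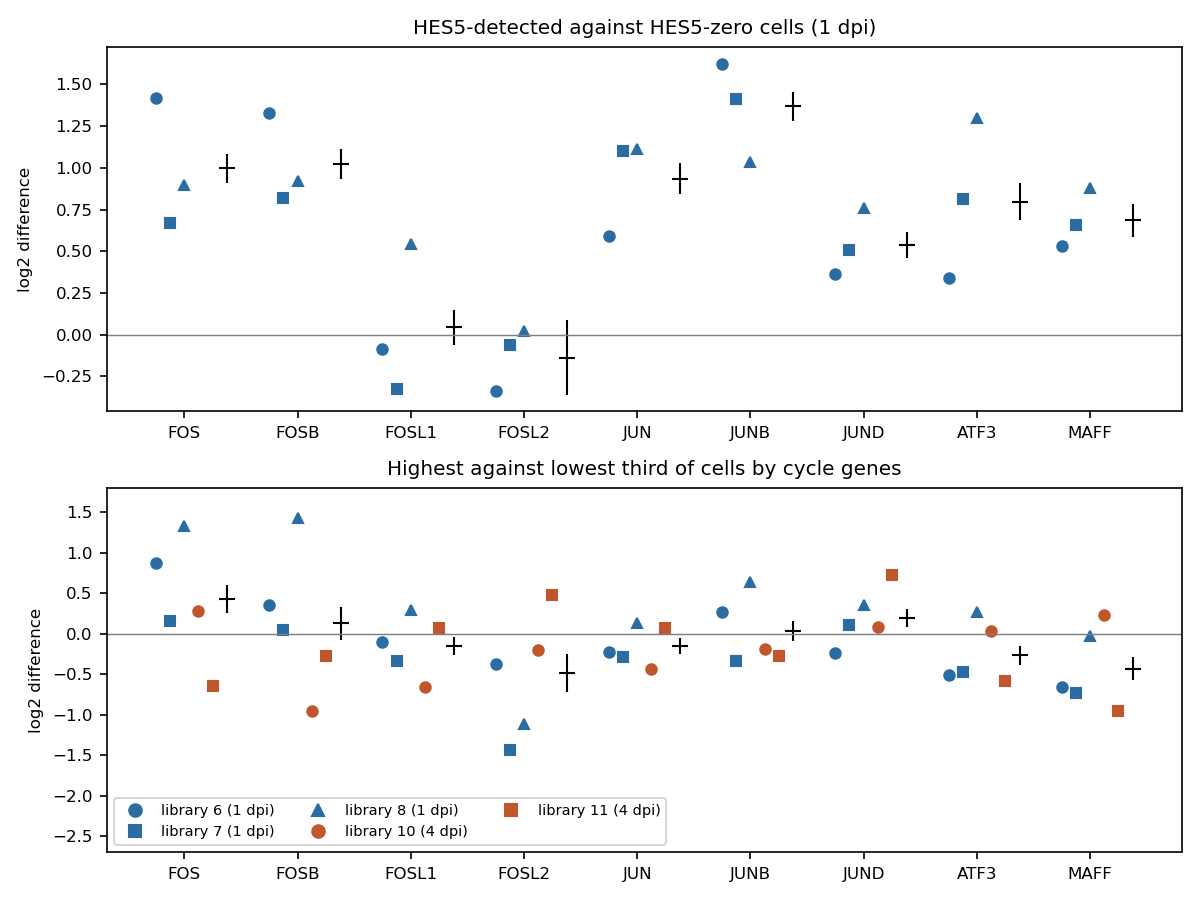
Log2 difference of each AP-1 gene between classes of cells in each library, with the fitted difference and its standard error in black. In the upper panel (HES5-detected against HES5-zero cells, 1 dpi) 7 genes lay above 0 in 3 of 3 libraries. In the lower panel (cycling against low-cycling cells, all 5 libraries) the libraries of most genes lay on both sides of 0.

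Around the members in the HES5 comparison, of 29 other immediate early genes, 22 were higher and 0 lower (median 0.89, and 18 and 0 in DESeq2), with EGR4 at 2.22, EGR3 at 1.78 and NR4A1 at 1.71. Of all genes 18.8% were called higher and 17.6% lower. Of 19 MAPK phosphatases and feedback inhibitors, 13 were higher and 0 lower (median 0.51; 11 and 0 in DESeq2, and 0 of either list lower at an unadjusted p under 0.05), led by DUSP2 (1.41), DUSP8 (1.28) and SPRY2 (1.21). Among 25 upstream kinases and SRF factors 8 were higher, with SRF itself, the factor that binds CArG boxes, at 0.98, and 3 lower. Of 23 AP-1 target genes tested, 10 were lower, against 17.6% of all genes, 2 higher and 11 not called (median -0.40), with ANXA1 at -1.34, the EGFR ligand AREG at -1.04 and EMP1 at -0.99 lower, and PHLDA1 (0.70) and CCND1 (0.48) higher. Of 20 bZIP partners 5 were higher, with the oxidative stress factor NFE2L2 at 0.77, and 3 lower, with CEBPB at -0.66. Heat shock genes were 2 higher, 4 lower and 6 not called of 12. The median over all genes tested was -0.01. Markers of cell types also differed between these classes. Of 8 epithelial markers 2 were higher, ELF3 (1.26) and CDH1 (0.45), and 3 lower, EPCAM (-0.56), KRT19 (-0.54) and KRT8 (-0.21), and their sum was 4728 to 5750 CPM in HES5-detected and 4909 to 6110 CPM in HES5-zero cells. The leukocyte marker CD14 was higher (2.02, adjusted p = 0.00253 in edgeR), with 8, 6 and 8 UMIs in HES5-detected and 6, 5 and 6 UMIs in HES5-zero cells of libraries 6, 7 and 8. In DESeq2 0 of the 2 leukocyte markers tested were higher at an adjusted p under 0.05, and 1 was at an unadjusted p under 0.05. The 5 listed of 9 leukocyte markers summed to 24.3 to 37.7 CPM in HES5-detected and 13.8 to 20.2 CPM in HES5-zero cells, with PTPRC, CD3E, MPO and TYROBP not listed. The part of these markers in the members' differences was not tested.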

How the data were processed

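SW480 cells from zebrafish xenografts were measured by SORT-seq on 5 plates (3 of 1 dpi, 2 of 4 dpi). The authors aligned reads with BWA to the human transcriptome (hg38 per the labels, versions not given in the sources used here) and deposited raw UMI counts per gene and well, without normalization. Some rows of these tables may not be among those used here. Of 21191 genes listed in any library, 15258 were in all, and 15020 in at least 10 wells. ERCC spike-ins (1.32% to 3.59% of UMIs) were left out of genes and totals, but counted in the denominator of the mitochondrial share, as in the code of the study. No doublet caller was run. The members and lists were chosen with earlier results of these data known, and the lists were written from general knowledge.

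Summed counts were tested with edgeR 4.0.16 (R 4.3.3; TMM, filterByExpr, quasi-likelihood test, two-sided, Benjamini-Hochberg over all genes tested, adjusted p under 0.05), with DESeq2 1.42.0 as an alternative. Standard errors were taken from the F statistic. Classes of cells were compared with library as a block. Phase genes are those of Seurat 5.3.0 (99 found) and HES5 itself was dropped from its comparison. Cells were thinned without replacement to 10000 UMIs (seed 1), which left out 14 to 38 cells per library. Library values were compared by exact permutation (two-sided). Named genes are the members, the 5 non-members most like FOS and JUN, and up to 3 called genes per list and direction with the largest change, a few of which are not reported here. Fits were tested on simulated data. Promoters came from RefSeq (GRCh38.p14), with 8 of 9 members matched. The flow cell was read from codes in the names of the deposited count tables. Counting intervals were not used for the class sums. Exact counts of each member ranged from 96 UMIs (FOSL2) to 4267 UMIs (FOS) per library. Depth per cell limits the detection of rare transcripts such as FOSL2.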

Additional observations from a re-analysis of the deposited data

Results flagged for a closer look

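For FOSB, the difference between cycling and low-cycling cells differed between the time points by the interaction test of edgeR: the log2 difference at 4 dpi minus that at 1 dpi was -1.17 (adjusted p = 0.036). FOSB was higher in cycling cells in 3 of 3 libraries of 1 dpi (mean log2 difference 0.61) and in 0 of 2 libraries of 4 dpi (mean -0.62). Over the libraries left out in turn the interaction ran from -1.52 to -0.80, and with cells thinned to 10000 UMIs, chosen after seeing the data, it was -1.71 (adjusted p = 0.000416). It did not pass without library 6 (adjusted p = 0.158), 8 (0.0613) or 10 (0.274).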

How the results depend on the processing

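Class comparisons had the library as a block. No paired analysis by replicate number was possible for 1 and 4 dpi because their libraries share no number, and with the flow cell as a term 3590 genes and 6 members were called between them. Leaving out library 10 or 11 left 1 library at 4 dpi, assumed to vary like the others. Where no cause is named below, the cause was not tested. Between time points 3483 genes were called, and in separate fits 1730 with thinned cells, 814 of 9762 tested in the lower and 1675 of 10810 tested in the upper tertile by cycle genes, where 1 member (ATF3) passed in the lower and FOSB turned to 0.42. MAFF, near 0, turned positive in 6 settings (0.00043 with a minimum of 1000 genes, 0.28 with a mitochondrial maximum of 15%, 0.013 in the upper tertile, 0.15 in HES5-zero cells, 7.94e-05 in DESeq2, 0.022 with library size only) and ran from -0.058 to 0.064 over the libraries left out in turn.

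In cycling cells, 871 genes and 2 members (ATF3 and MAFF) were called with thinned cells, where FOSB was -0.23 and JUNB -0.28. There were 2 members with halved groups or without a filter, 1177 genes and 0 members in DESeq2 (1 lower at an unadjusted p under 0.05), and 1056 genes and 0 members without the library block. Over the libraries left out, 0 to 2 members were called, FOSB ran from -0.18 to 0.37 and JUNB from -0.13 to 0.13. For the interaction, 2 members (FOS and FOSB) passed with thinned cells, where ATF3 was -0.52 and MAFF -0.19. Over the libraries left out there were 20 to 104 genes and 0 to 2 members, with FOSL1 from -0.59 to 0.14, JUN from -0.29 to 0.21, ATF3 from -0.30 to 0.31 and MAFF from -0.47 to 0.72. In HES5-detected cells, 1652 genes were called with thinned cells, 2021 in DESeq2, and 1341 genes and 3 members in the low-cycling cells, where FOSL1 was -0.67. FOSL1 ran from -0.20 to 0.21 over the libraries left out.

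Thinning to 5000 UMIs, which by construction leaves fewer UMIs, gave a FOS Fano difference (4 minus 1 dpi) of -5.27, a difference in members per cell of -0.366 and 9.52 percentage points more cells with 0 or 1 member. With a mitochondrial maximum of 15%, the MAFF share differed by 1.22 points, the mean pair r by 0.0656, the members per cell by -0.210 and the cells with 0 or 1 member by -0.375 points.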

Other observations

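The genes most like FOSL1 and MAFF were looked at in the same way as those of FOS and JUN, after the values of these had been seen. FOSL1 was most like TNFRSF12A, the receptor of TWEAK (median r 0.41, between 0.24 and 0.59 over the 5 libraries), PPP1R15A (0.40) and AREG (0.35), and its ranking of family members began only with JUND at 21. MAFF was most like PPP1R15A (0.51, between 0.34 and 0.66) and GADD45B (0.47), and its nearest family member was ATF3 at rank 12. ATF3 had 3 family members at its first 3 ranks, JUN, FOSB and FOS (median r 0.58, 0.58 and 0.56).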
